A study of Mus musculus with 42 samples.

Results

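The cell cycle and DNA replication genes described here are 35 genes listed by symbol and found by that symbol among the 54532 genes of the read count table. They comprise 3 genes of G1 entry and growth (Ccnd1, Ccne2, Myc), 2 brakes on the cycle (Wee1, Cdkn1a), 9 genes of DNA replication (Mcm2 to Mcm7, Pcna, Rrm2, Tyms), 10 mitotic cyclins and kinases or their partners (Ccna2, Ccnb1, Ccnb2, Cdk1, Cdc20, Aurka, Aurkb, Plk1, Bub1, Bub1b) and 11 genes of chromosome structure and the spindle (Mki67, Top2a, Birc5, Cdca8, Cenpe, Cenpf, Kif11, Kif20a, Nusap1, Prc1, Tpx2). Of these, 31 had a mean of at least 25 reads over the liver libraries tested and entered the tests, while Ccnb2, Bub1, Aurkb and Plk1 did not.

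A cell that leaves rest makes D-type cyclins in G1, loads the ring-shaped MCM helicase onto its replication origins, copies its DNA in S phase with PCNA as the sliding clamp, and enters mitosis when cyclin B activates CDK1. The genes of replication are largely switched on by E2F factors late in G1, and those of mitosis later by a complex that binds the cell cycle homology region (CHR). Most hepatocytes of an adult liver are at rest, and the liver of a young mouse that is still growing holds few dividing cells. The circadian clock of the liver drives Wee1 directly, and Wee1 holds CDK1 inactive.

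Samples labelled as liver came from female C57BL/6 mice (substrain C57BL/6NHsd) that were 6 weeks old at collection. For 3 weeks from weaning the mice had been given the standard diet AIN93G, with 16% of its energy as fat, or a high-fat diet (HFD) with 45%. Lights came on at ZT 0 and went off at ZT 12, and 3 mice per diet were sampled every 4 h from ZT 0 to ZT 24, so that each of the 42 libraries of poly(A) RNA came from 1 mouse. No mouse carried a transgene or received a further treatment according to the labels, and the mice were not fasted. Libraries held from 14592481 to 21368409 counted reads, and levels are given as counts (CPM) per 1000000 of the library size scaled by TMM over all libraries. P-values measure the spread between mice, and in whole tissue, a lower share of a kind of cell and less RNA per cell cannot be told apart.

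The labels did not account for all differences between libraries. Albumin (Alb) reached between 66434 and 111995 CPM in 32 libraries, called liver libraries here, and between 18.7 and 81.0 CPM in 10 others, which held 1455 to 2984 CPM of the adipocyte gene Adipoq against at most 5.01 CPM in the liver libraries (both relative to all counts of the library). The 10 adipocyte-rich libraries were those of AIN93G at ZT 16 and ZT 20 and replicates 1 and 2 of either diet at ZT 24, and they were kept apart throughout. The clock genes also set some libraries against their time labels. At ZT 12 the clock output gene Dbp stood at 70.1 to 114 CPM in AIN93G replicate 1 and HFD replicates 1 and 2, but at 0.1 to 0.4 CPM in AIN93G replicates 2 and 3 and HFD replicate 3. The labels also give each library a phase, which at ZT 12 was light for AIN93G replicate 2 and HFD replicate 3 and dark for the other 4. In the 2 liver libraries of ZT 24, Dbp stood at 174 and 77.1 CPM, against at most 0.94 CPM in the 6 libraries of ZT 0, with the phase given as dark at ZT 24 and light at ZT 0. Comparisons over time used the 30 liver libraries of ZT 0 to ZT 20.

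Per kilobase of transcript, the G1 cyclin gene Ccnd1 and the clamp gene Pcna had the highest median levels over the 32 liver libraries, at 14.7 and 13.3 CPM per kb. The helicase gene Mcm7 followed at 3.80 CPM per kb and the ribonucleotide reductase gene Rrm2, which supplies DNA precursors, at 2.58 CPM per kb. The proliferation marker Mki67 stood at 0.689 CPM per kb, Cdc20, which activates the ligase that ends mitosis, at 0.574 CPM per kb and the kinetochore gene Cenpf, the lowest, at 0.0761 CPM per kb. The 4 genes below the minimum of reads peaked in liver at 6.42 CPM (Ccnb2), 1.99 CPM (Bub1), 3.71 CPM (Aurkb) and 5.76 CPM (Plk1), each in AIN93G ZT 4 replicate 2.

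By edgeR, the members called over the time points in mice fed the HFD were the 2 brakes. Wee1 (chr7:110122046-110143286, plus strand) was low at ZT 0 and ZT 4 and higher at ZT 8 and, with the HFD, at ZT 16, while the libraries of ZT 12, given further on, were split. In mice fed the HFD it measured 3.36, 1.32 and 3.09 CPM at ZT 0, 26.0, 10.4 and 22.1 CPM at ZT 8, 25.01, 21.2 and 15.0 CPM at ZT 16, and 8.14, 7.93 and 5.29 CPM at ZT 20. The means rose from 2.59 ± 1.11 CPM (SD, n = 3) at ZT 0 to 20.4 ± 5.06 CPM (SD, n = 3) at ZT 16 without overlap. In mice fed AIN93G it measured 4.20, 2.32 and 2.89 CPM at ZT 0 and 16.6, 10.6 and 15.2 CPM at ZT 8, again without overlap.

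Cdkn1a (chr17:29090976-29100727, plus strand) encodes p21, an inhibitor of the cyclin-dependent kinases, and was highest at ZT 0, where Wee1 was low. With the HFD it measured 40.3, 29.99 and 52.4 CPM at ZT 0, 2.76, 7.12 and 11.1 CPM at ZT 4 and 7.60, 4.01 and 1.78 CPM at ZT 8. With AIN93G it measured 24.8, 31.5 and 14.5 CPM at ZT 0 and 1.70, 3.87 and 2.60 CPM at ZT 8. In both diets every library of ZT 0 lay above every library of ZT 4 and of ZT 8.

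Across the 6 time points with the HFD, 2 of the 31 members tested changed (Wee1 and Cdkn1a), where 634 of all 12023 genes did (5.27%), by edgeR's quasi-likelihood test with Benjamini-Hochberg adjustment over all genes. DESeq2 called 5 members there (Cdkn1a, Mcm5, Myc, Rrm2 and Wee1) and 1788 of all 12023 genes. With no filter on low counts edgeR called 12 of 35 members and 1738 of 30203 genes, and with the ZT 24 livers counted as ZT 0 no member and 200 of 12000 genes. The highest and lowest means of Cdkn1a differed by 3.20 on the log2 scale (adjusted p = 0.0180) and those of Wee1 by 2.96 (adjusted p = 0.0343). The call for Cdkn1a held in 29 of the 30 fits that left out 1 library, the exception being the fit without HFD ZT 0 replicate 3 (adjusted p = 0.0699). The call for Wee1 held in 18 of 30, with adjusted p from 0.00361 to 0.0784. It was lost without any 1 of the 6 HFD libraries of ZT 0 and ZT 4, replicate 1 or 3 of ZT 8, replicate 1 of ZT 12 or of ZT 16, or replicate 1 or 2 of ZT 20 (adjusted p from 0.0506 to 0.0784). With AIN93G, where only 4 time points were liver, edgeR called none of the 31 members against 99 of all genes (0.823%), while 7 members and 1283 of all genes had an unadjusted p under 0.05 and DESeq2 called Cdkn1a and Aurka among 276 genes. There the means of Cdkn1a spanned 3.10 (adjusted p = 0.0798), those of Wee1 2.50 (adjusted p = 0.167) and those of Aurka, a kinase of the spindle poles, 1.16 (adjusted p = 0.116). The median span over the members was 1.21 with the HFD and 1.16 with AIN93G, beside 0.516 and 0.323 over all genes tested.

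**Figure D1:**
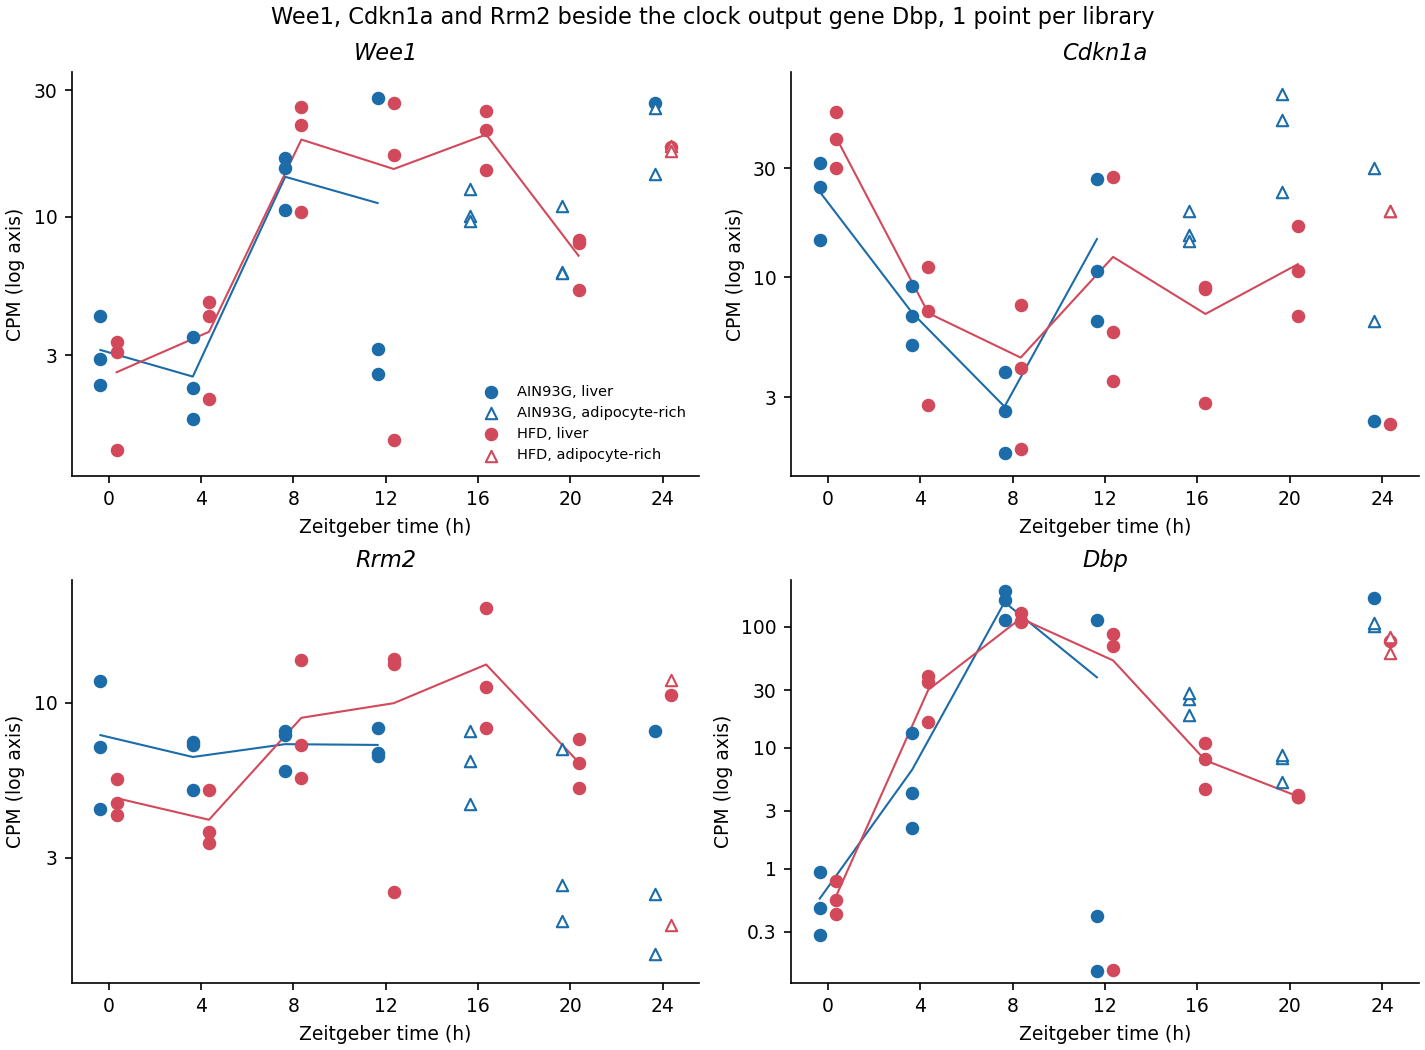
Level in CPM of Wee1, Cdkn1a, Rrm2 and the clock gene Dbp against Zeitgeber time in hours, with 1 point per library, circles for liver and triangles for adipocyte-rich libraries, and lines through the means of the liver groups from ZT 0 to ZT 20. Wee1 rises from ZT 4 to ZT 8 in both diets, Cdkn1a falls from ZT 0 to ZT 8, and at ZT 12 the libraries low in Dbp are those low in Wee1.

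A cosine curve with a period of 24 h, fitted to the 18 liver libraries of mice fed the HFD, was called for 2 of 30 members tested, Wee1 and Rrm2, and for 1023 of all 12008 genes (8.52%). Wee1 had an amplitude of 1.56 on the log2 scale, a fold of 8.75 between peak and trough, with its peak at ZT 12.6 (adjusted p = 0.00995). Rrm2 had an amplitude of 0.82, a fold of 3.13, with its peak at ZT 13.7 (adjusted p = 0.0328). The fitted peak of Wee1 lay between those of the clock genes Dbp (ZT 9.09) and Per2 (ZT 14.7) and far from that of Arntl (ZT 20.8). The curve of Cdkn1a peaked at ZT 22.5 with an amplitude of 0.94 and did not pass (adjusted p = 0.141). Wee1 was called in each of the 18 fits without 1 library and Rrm2 in 10 of 18. The call for Rrm2 was lost without replicate 1 or 3 of ZT 0, 2 or 3 of ZT 4, 1 or 2 of ZT 12 and 1 or 3 of ZT 16 (adjusted p from 0.0542 to 0.0761, the highest without HFD ZT 16 replicate 1). With the ZT 24 liver counted as ZT 0, neither was called. The median amplitude of the members was 0.451, beside 0.167 for all genes.

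The libraries that the clock genes set apart were also set apart by Wee1. At ZT 12 it measured 28.03 CPM in AIN93G replicate 1 and 17.1 and 26.8 CPM in HFD replicates 1 and 2, but 3.17 and 2.55 CPM in AIN93G replicates 2 and 3 and 1.44 CPM in HFD replicate 3, the libraries in which Dbp was nearly absent. Cdkn1a was highest at ZT 12 in 2 of those 3, with 26.9 CPM in AIN93G replicate 3 and 27.5 CPM in HFD replicate 3, against 3.51 to 10.6 CPM in the other 4. In the liver libraries of ZT 24, a day after ZT 0, Wee1 measured 26.8 and 18.2 CPM against 1.32 to 4.20 CPM at ZT 0. Cdkn1a measured 2.35 and 2.28 CPM there against 14.5 to 52.4 CPM at ZT 0. Neither gene overlapped between ZT 0 and ZT 24, and the clock genes moved with them. The cause was not tested. Without ZT 12, the span of time was called for 3 members with the HFD (Rrm2 beside Wee1 and Cdkn1a) and for 2 with AIN93G (Wee1 and Cdkn1a), where 1047 and 437 of all 12056 genes were called.

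Among the genes of G1 entry, Ccnd1, which encodes cyclin D1, was lowest late in the dark phase of mice fed the HFD. It measured 35.3, 20.6 and 23.6 CPM at ZT 20 and 132, 22.1 and 29.6 CPM at ZT 16, against 35.7 to 121 CPM from ZT 0 to ZT 12. The groups of ZT 20 and ZT 0 did not overlap, but their nearest libraries were close (35.3 and 35.7 CPM). The span of its means with the HFD was 1.79 and did not pass (adjusted p = 0.188). Myc, a transcription factor that promotes growth, measured 3.28, 8.84 and 16.8 CPM with AIN93G and 3.42, 2.23 and 13.5 CPM with the HFD at ZT 8. Its highest liver level was 26.4 CPM in AIN93G ZT 24 replicate 3, and the span of its means with the HFD was 2.31 (adjusted p = 0.110). Ccne2, which encodes the S-phase cyclin E2, ranged from 0.945 to 8.13 CPM in liver and was highest in HFD ZT 16 replicate 1.

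The genes of replication were led by 1 mouse. In HFD ZT 16 replicate 1, a library singled out after its values were seen, the 6 MCM genes summed to 204 CPM, against 39.4 and 52.9 CPM in replicates 2 and 3 of its group and 36.7 to 84.8 CPM in the other 31 liver libraries. Mcm5 (chr8:75109569-75128439, plus strand) measured 33.9, 3.21 and 4.97 CPM in replicates 1 to 3 of that group. Mcm2 measured 26.6, 2.82 and 5.03 CPM, and Mcm6 50.9, 7.67 and 11.8 CPM. All 9 replication genes had their highest level of the 30 liver libraries there, as did Ccne2, which made 10 of 31 members, where 412 of all 12023 genes had theirs (3.43%). For Tyms the lead was no more than a tie, at 10.883 against 10.881 CPM in the next library.

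The excess of that library over the median of the other 31 liver libraries was uneven among the replication genes. It was 8.17 times for Mcm5, 5.59 for Mcm2, 5.07 for Mcm6, 4.86 for Mcm3 and 3.93 for Mcm4, but 2.27 for Mcm7. Pcna stood at 1.77 times the median and Tyms, the enzyme that makes thymidylate, at 1.20 times. Of the other replication genes tested (origin recognition, replication factor C, polymerases and the like), 19 of 35 (54.3%) were highest there. The sum of the 21 mitotic members was 96.6 CPM, place 3 among the 32 liver libraries. Its hepatocyte markers summed to 0.910 times the liver median, its lymphocyte markers to 23.6 CPM (place 6, within 9.09 to 29.4 CPM), its neutrophil markers to 0.856 times, its erythroid markers to 1.07 times and its adipocyte markers to 1.66 times (place 3). In liver the adipocyte sum (median 1451 CPM) was mostly Car3 (median 1402 CPM), while Adipoq had a median of 0.0734 CPM. The part of these markers in the replication genes was not tested.

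The promoters of the MCM genes are shown because these genes moved together in that library. In the RefSeq promoter table for GRCm38.p6, which holds 300 bases for each gene (250 before and 50 after the start), 26 of the 35 members were found, not Ccna2, Ccnd1, Ccne2, Aurkb, Kif20a, Tpx2, Mcm4, Wee1 and Myc. An E2F sequence, searched on both strands as TTTCCCGC, TTTCGCGC, TTTGCCGC or TTTGGCGC, was read in 4 of 5 MCM promoters (80%) and in 2.316% of all 27025 promoters. The stretches before the start of Mcm5 (chr8:75109349-75109508, plus strand) and Mcm6 (chr1:128359706-128359825, minus strand) are given 5′ to 3′ with these letters in capitals, where the first run in each holds 2 overlapping matches, 1 on each strand. A match is a description of the letters and not a measured site.
Mcm5: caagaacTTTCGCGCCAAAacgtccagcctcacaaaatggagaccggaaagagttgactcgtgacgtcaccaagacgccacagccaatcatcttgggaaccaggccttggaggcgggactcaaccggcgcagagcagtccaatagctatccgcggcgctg
Mcm6: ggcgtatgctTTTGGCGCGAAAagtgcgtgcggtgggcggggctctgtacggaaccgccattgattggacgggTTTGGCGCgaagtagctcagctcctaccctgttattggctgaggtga

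**Figure D2:**
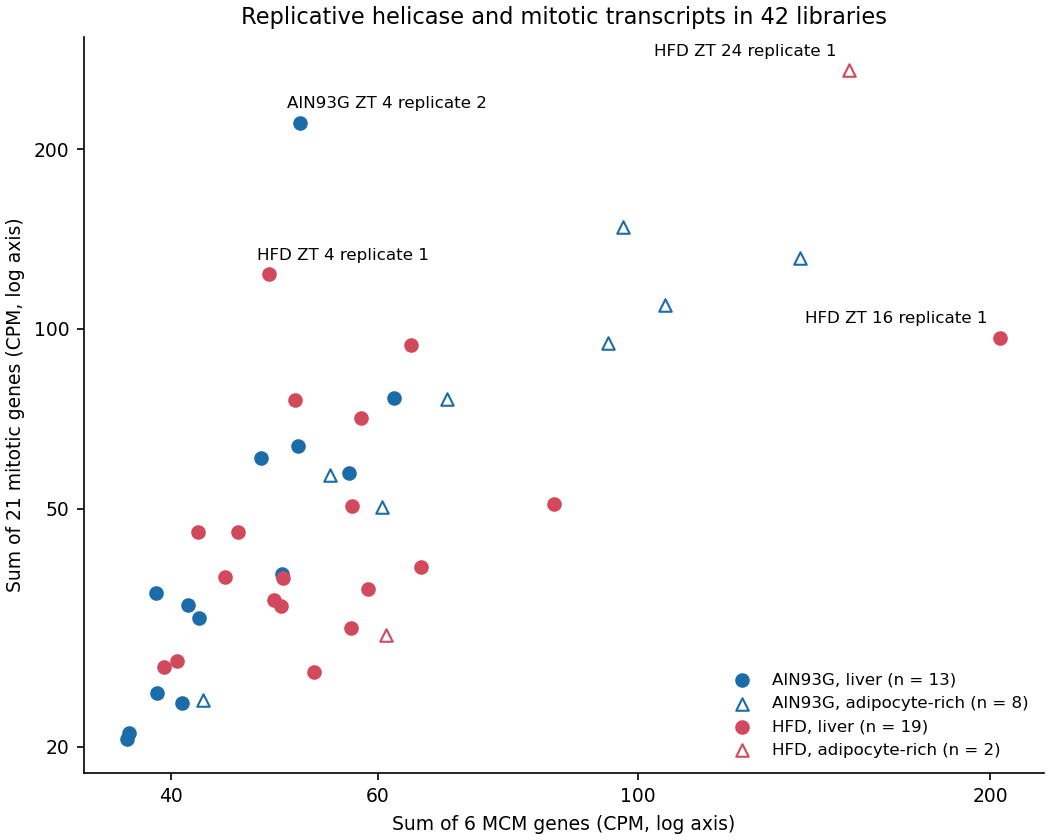
Sum of the 6 MCM genes against the sum of the 21 mitotic members in each of the 42 libraries, both in CPM on log axes, coloured by diet and shaped by liver or adipocyte-rich content. HFD ZT 16 replicate 1 stands out to 204 CPM on the MCM axis and AIN93G ZT 4 replicate 2 to 222 CPM on the mitotic axis, and HFD ZT 24 replicate 1, an adipocyte-rich library, is high on both (152 and 271 CPM).

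Among the liver libraries other than that mouse, the sum of the MCM genes stayed within 36.7 to 84.8 CPM. From ZT 0 to ZT 12, Pcna lay between 22.4 and 36.5 CPM in both diets. In mice fed the HFD, Rrm2 measured 4.18, 5.54 and 4.60 CPM at ZT 0, 13.9, 7.20 and 5.58 CPM at ZT 8, 20.8, 8.21 and 11.4 CPM at ZT 16 and 5.16, 7.53 and 6.25 CPM at ZT 20. Every library of ZT 16 lay above every library of ZT 0, ZT 4 and ZT 20. In mice fed AIN93G it lay between 4.37 and 11.9 CPM from ZT 0 to ZT 12, and the later libraries up to ZT 20 were the adipocyte-rich ones. None of the 9 replication genes passed the test over the time points with the HFD, where Rrm2 spanned 1.74 (adjusted p = 0.0733), Mcm5 2.18 (adjusted p = 0.131) and Mcm7 0.82 (adjusted p = 0.195).

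The mitotic genes were led by another mouse, at another time and with the other diet. In AIN93G ZT 4 replicate 2, also singled out after its values were seen, the 21 mitotic members summed to 222 CPM, against 21.1 and 76.6 CPM in replicates 1 and 3 and a median of 38.7 CPM over the liver libraries. Cdc20 (chr4:118432901-118437352, minus strand) measured 0.436, 22.97 and 4.71 CPM in the 3 replicates. Ccnb1, the cyclin that starts mitosis, measured 0.291, 13.6 and 2.49 CPM. Mki67 measured 1.96, 31.9 and 15.4 CPM, and Top2a, which untangles replicated chromosomes, 1.38, 15.6 and 7.88 CPM.

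All 11 genes of chromosome structure and spindle and 5 of the 6 tested mitotic cyclins and kinases had their highest level of the 30 liver libraries in that mouse, 16 of 31 members in all, where 276 of the 12023 genes did (2.3%). The exception was Aurka, which was highest in HFD ZT 0 replicate 3 (8.83 CPM). Ccnb1, with a median of 0.846 CPM in the other 31 livers, had too few reads to be tested in the cosine fit of the HFD livers. Its place among the 31 members therefore rests partly on the AIN93G libraries, this one included. The excess over the median of the other 31 liver libraries ran from 3.18 to 11.6 times for the spindle genes and from 1.91 to 21.5 times for the cyclins and kinases, while the replication genes stood at 0.846 to 1.27 times and the MCM sum at 51.5 CPM. Of the other genes of mitosis tested, 12 of 21 (57.1%) were highest there. HFD ZT 4 replicate 1 came second, with a mitotic sum of 123 CPM against 45.7 and 27.8 CPM in replicates 2 and 3, and likewise an ordinary MCM sum of 48.5 CPM. In AIN93G ZT 4 replicate 2 the hepatocyte markers summed to 0.990 times, the erythroid to 1.35 times, the lymphocyte to 1.15 times, the neutrophil to 1.42 times and the Kupffer cell markers to 1.11 times the liver median, and their part in the result was not tested.

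By edgeR, none of the 17 tested mitotic members passed the test over the time points in either diet, and DESeq2 called 1, Aurka, with AIN93G. At an unadjusted p under 0.05 there were 4 of the 17 with AIN93G, where 1283 of all 12023 genes were, and none with the HFD, where 3034 were. Among the liver libraries, the highest mitotic sum of either diet was at ZT 4, but the other 4 mice of ZT 4 had sums of 21.1 to 76.6 CPM, and the liver libraries of the other times up to ZT 20 had 23.7 to 96.6 CPM.

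The promoters of the mitotic members are shown for their shared letters. The CHR sequence, searched on both strands as TTTGAA or TTCGAA, was read in 13 of 17 mitotic promoters (76.47%) and in 19.44% of all promoters of the same length, and CCAAT in 22 of the 26 member promoters (84.62%) against 37.92%. The E-box CACGTG was read in 1 of 26 (that of Tyms) against 7.241% of all. Stretches around the start are given 5′ to 3′ for Cdk1 (chr10:69352913-69353052, minus strand), Top2a (chr11:99024190-99024249, minus strand), Cdc20 (chr4:118437344-118437423, minus strand), Kif11 (chr19:37376322-37376381, plus strand) and Mki67 (chr7:135716380-135716509, minus strand), with CHR letters in capitals, read as TTCAAA where they lie on the other strand, and in Cdk1 also 1 E2F sequence.
Cdk1: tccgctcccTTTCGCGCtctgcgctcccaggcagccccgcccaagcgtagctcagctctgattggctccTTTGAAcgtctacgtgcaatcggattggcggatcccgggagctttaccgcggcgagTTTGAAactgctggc
Top2a: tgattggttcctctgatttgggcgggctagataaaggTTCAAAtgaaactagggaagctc
Cdc20: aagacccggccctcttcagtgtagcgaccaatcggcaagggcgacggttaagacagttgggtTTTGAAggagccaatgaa
Kif11: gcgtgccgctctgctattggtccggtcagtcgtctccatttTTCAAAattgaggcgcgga
Mki67: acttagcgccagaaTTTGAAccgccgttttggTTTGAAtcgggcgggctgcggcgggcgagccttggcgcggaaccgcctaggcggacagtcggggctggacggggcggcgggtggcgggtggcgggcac

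**Figure D3:**
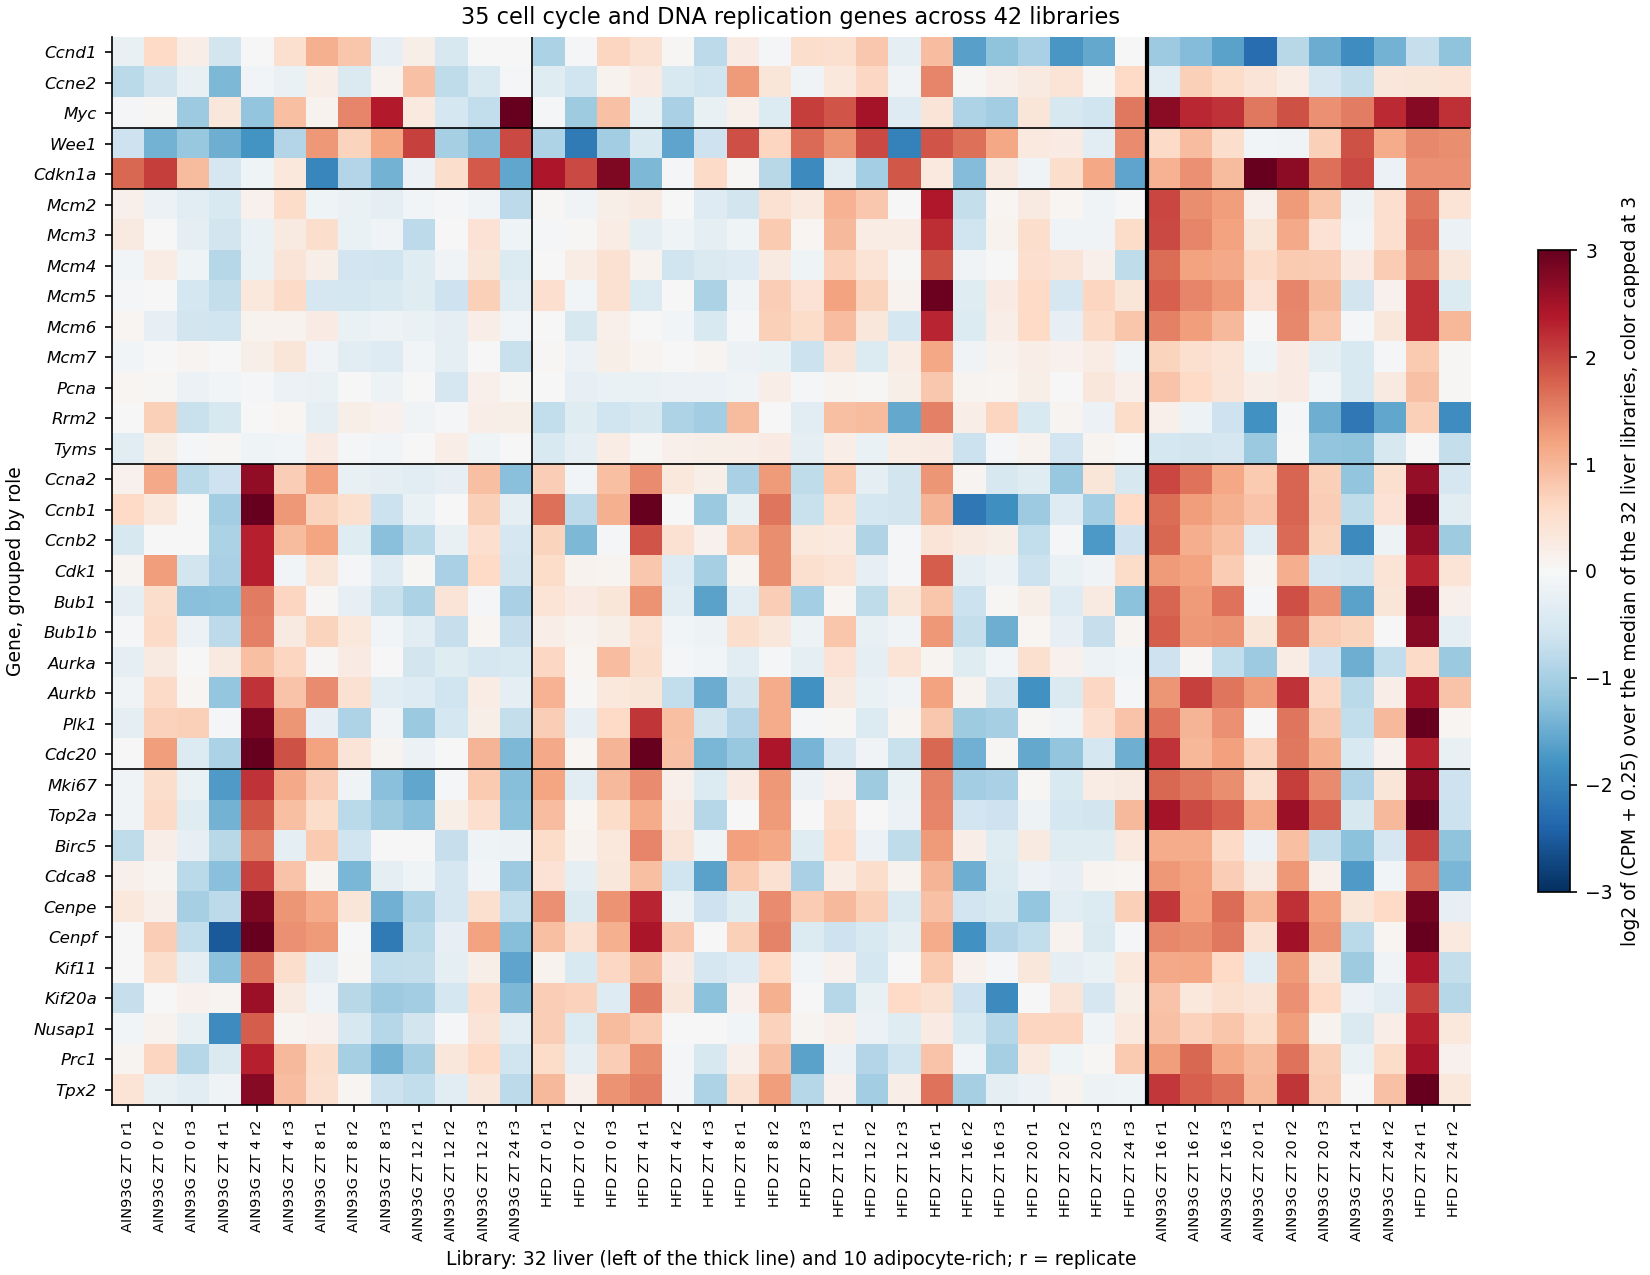
Level of each of the 35 members (rows, grouped by role) in each of the 42 libraries (columns, by diet, time and replicate), as the log2 ratio of CPM to the gene's median over the 32 liver libraries with 0.25 CPM added to both, with colours capped at 3 in either direction. Single columns stand out: the replication block in HFD ZT 16 replicate 1, the mitotic blocks in AIN93G ZT 4 replicate 2, and both in the adipocyte-rich HFD ZT 24 replicate 1.

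Mice of the same group differed widely in many of these genes. The standard deviation of log2 CPM within groups had a median of 0.782 over the 31 members, beside 0.259 over all 12023 genes, and the biological coefficient of variation a median of 0.486 beside 0.177. For 27 of 31 members it lay above the trend that edgeR fitted against mean level, as it did for 2882 of all 12023 genes. The standard deviation was widest for the spindle genes (median 0.957), the mitotic cyclins and kinases (0.952) and the 2 brakes (0.951), and lower for the replication genes (0.596). The spread of the brakes includes the ZT 12 groups, in which libraries high and low in Dbp stood together, with Wee1 at 28.03 against 3.17 and 2.55 CPM with AIN93G. By standard deviation, Cdc20 (1.56), Cenpf (1.54) and Ccnb1 (1.47) varied most, but their mean log2 CPM was low (0.383, 0.344 and −0.0785). The 36 genes in the bin from 0 had a median of 1.12 and a 95th percentile of 2.40, and the 9 in the bin from −0.5 a median of 1.71. The spread of these 3 members thus lay within that of other genes at their level. Pcna (0.208), Tyms (0.278), Mcm7 (0.290) and Aurka (0.298) varied about as much as the median gene.

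**Figure D4:**
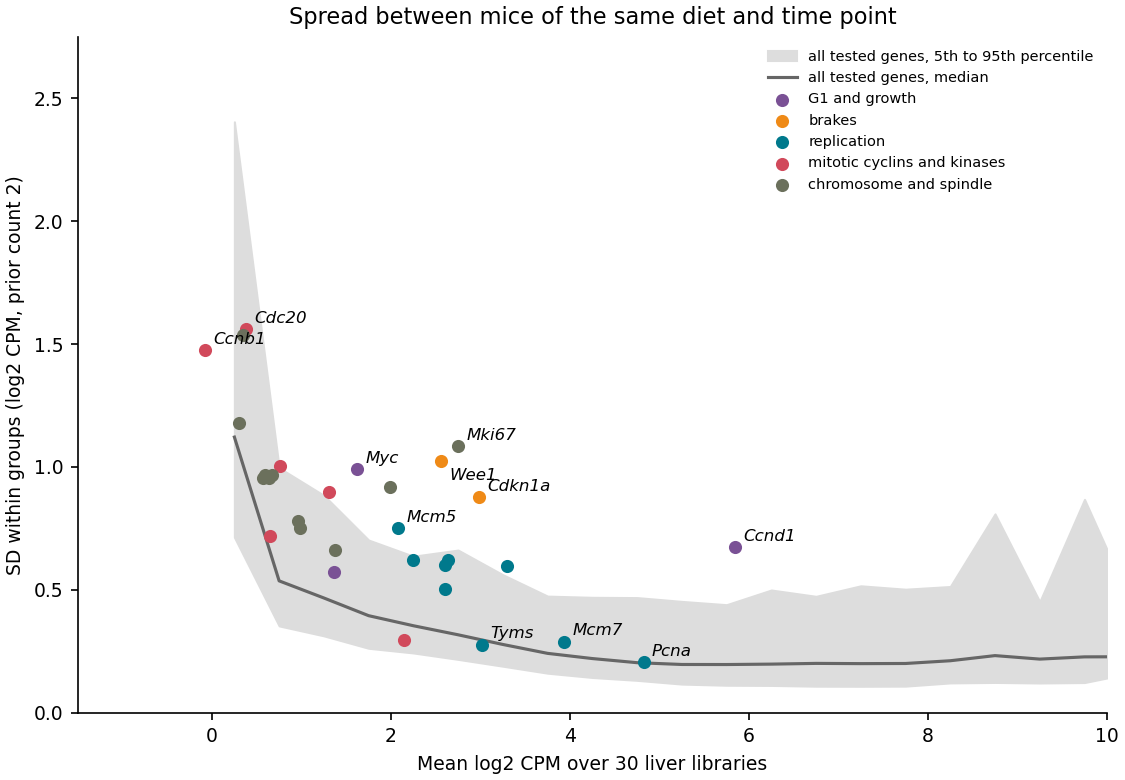
Standard deviation of log2 CPM within the liver groups against mean log2 CPM for the 31 members tested, coloured by role, over a grey band from the 5th to the 95th percentile of all tested genes in bins of 0.5 holding at least 20 genes. Mki67, Myc, Wee1, Cdkn1a, Mcm5 and Ccnd1 lie above the band, and Pcna, Tyms, Mcm7 and Aurka lie inside it.

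Diet was compared where both diets gave liver, at ZT 0, 4, 8 and 12, and no member passed the test. Averaged over these times, edgeR called 12 of 12023 genes (0.0998%) and none of the 31 members, of which none had an unadjusted p under 0.05 and none was called by DESeq2. The differences, HFD minus AIN93G on the log2 scale, ran from −0.26 ± 0.58 (SE) for Cdc20 to 0.48 ± 0.45 (SE) for the kinetochore motor Cenpe. The smallest p belonged to Ccne2, at 0.37 ± 0.24 (SE, adjusted p = 0.701). Precision differed among members, with a standard error of 0.085 for Pcna (difference 0.034) and 0.61 for Ccnb1 (difference −0.0056), so that the data bounded a diet difference closely for Pcna and loosely for Ccnb1. The median difference was 0.126 over the members and −0.00187 over all genes.

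Taken time by time, edgeR called 0 of 12023 genes at ZT 0 (0%), none at ZT 4 (0%), 2 at ZT 8 (0.0166%), none at ZT 12 (0%), and no member in any of these. At an unadjusted p under 0.05 there were 480, 302, 1411 and 875 genes, and DESeq2 called 13, 0, 30 and 3 genes and no member. Aurka had an unadjusted p under 0.05 at ZT 0 (0.60 ± 0.26 SE) and at ZT 12 (0.75 ± 0.26 SE), with 5.30 ± 1.44 CPM (SD, n = 3) in mice fed the HFD and 3.18 ± 0.229 CPM (SD, n = 3) in those fed AIN93G at ZT 12, and no overlap there. Myc had one at ZT 12 (2.12 ± 0.75 SE), with 11.8, 18.3 and 2.23 CPM against 3.77, 2.02 and 1.70 CPM, where the groups overlapped. With no filter on low counts edgeR called it there, and also for the change of the diet difference with time. The highest Myc levels of that time were in libraries high in Dbp, which were replicates 1 and 2 with the HFD and replicate 1 with AIN93G, and the part of this split in the difference was not tested. For the change of the diet difference with time, edgeR called 0 genes (0%) and 728 at an unadjusted p under 0.05, DESeq2 called 5 genes and no member, and the 2 members with an unadjusted p under 0.05 were again Aurka (0.00363) and Myc (0.0438).

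At ZT 16 and ZT 20 the mice fed AIN93G gave adipocyte-rich libraries and those fed the HFD gave liver, so diet and tissue content cannot be told apart there. Of 32 members tested in a fit of all 42 libraries, 15 were called, 13 of them higher and 2 lower in the adipocyte-rich libraries, where 9621 of 13394 genes were called (71.8%), 4938 (36.9%) of them higher and 4683 (35%) lower. Myc was 2.40 ± 0.49 (SE) higher on the log2 scale (adjusted p = 6.87e-05), with 21.3, 15.4 and 14.6 CPM at ZT 16 and 9.56, 12.0 and 8.21 CPM at ZT 20 against 1.35 to 4.04 CPM in the 6 livers. Cenpe was 2.15 ± 0.66 (SE) higher (adjusted p = 0.00476), with 2.36 to 5.70 CPM against 0.339 to 2.14 CPM. These were the 2 members whose groups did not overlap, whereas 3379 genes (25.2%) did not overlap upwards and 3366 (25.1%) downwards, and the other 33 members overlapped.

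The members called higher were mostly mitotic. They were 5 of 7 mitotic cyclins and kinases tested (Ccnb1, Cdc20, Ccnb2, Bub1b, Ccna2) and 6 of 11 spindle genes (Cenpe, Top2a, Cenpf, Tpx2, Mki67, Prc1), with medians of 1.43 and 1.28 over these lists against 0.0280 over all genes. Ccnb2 had too few reads for the liver fit, where 6 of the mitotic cyclins and kinases were tested. It entered this fit only with the adipocyte-rich libraries included, so its call is not independent of the filter. Top2a was 2.07 ± 0.55 (SE) higher (adjusted p = 0.00136) and Mki67 1.39 ± 0.57 (SE) higher (adjusted p = 0.0293). Cdkn1a was 1.61 ± 0.46 (SE) higher (adjusted p = 0.00240), with 62.8, 48.5 and 23.7 CPM at ZT 20 against 6.78, 10.7 and 16.8 CPM in the livers of that time. Rrm2 fell by 0.92 ± 0.39 on the log2 scale (adjusted p = 0.0349) and Tyms by 0.51 ± 0.20 (adjusted p = 0.0245). Ccnd1 lay at 13.9 to 42.5 CPM in all 10 adipocyte-rich libraries, below the liver median of 69.0 CPM in each, but the low livers of ZT 16 and ZT 20 stood at the same level and it was not called.

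The scaling and single libraries weighed on this comparison. With no TMM factor, only the library size, the median over all genes moved from 0.0280 to 0.757, with 8961 genes higher and 2364 lower, 26 members were called, each of them higher, and Mcm7 (−0.10 to 0.63) and Tyms (−0.51 to 0.23) changed sign. Without HFD ZT 16 replicate 1, the MCM genes Mcm2 to Mcm6 were called higher, Rrm2 and Tyms were no longer called and 19 members and 9479 of 13406 genes were called in all. Without AIN93G ZT 20 replicate 2, 8 members and 9314 of 13349 genes were called, and without HFD ZT 16 replicate 3, 8 members and 9360 of 13407 genes. Ccnb1, at 2.19 ± 0.85 (SE), moved to 4.26 without HFD ZT 16 replicate 1, since the libraries left in that group held 0 and 1 read, and the larger value depends on the prior count of the fit. Bub1b, Cdkn1a, Cenpe, Myc and Top2a were called in each of the 12 fits that left out 1 library, Tpx2 in 11 and Ccnb1 in 9. Ccna2, Ccnb2 and Cdc20 were each called in 5 of the 12, with adjusted p up to 0.0979, 0.122 and 0.0924. Mki67 and Cenpf were called in 8 of the 12, Tyms in 7 and Prc1 and Rrm2 in 6, with adjusted p up to 0.125. The lymphocyte markers summed to 40.6 to 1006 CPM in the adipocyte-rich libraries and 9.09 to 29.4 CPM in liver, and in the comparison at ZT 16 and ZT 20 all 10 lymphocyte markers were called higher, with a median of 4.38 on the log2 scale. Over all 10 adipocyte-rich libraries, 4 of the 10 were higher by median and Ighm alone lay above liver in each. The neutrophil markers summed to 4.16 to 91.0 CPM against 0.134 to 4.61 CPM, mostly from Ltf (median 27.8 against 0.0655 CPM), while S100a9, Camp and Ngp had lower medians than in liver and Ly6g was at 0 in all 10. The mammary epithelial markers summed to 47.6 to 652 CPM against 221 to 404 CPM in liver, where Krt8 and Krt18 made up most of the sum, and of the 8, Krt5, Csn3 and Epcam lay above liver in each adipocyte-rich library. Krt5 stood at 0.741 to 31.7 CPM there and at 0 in 30 of 32 livers, while the milk protein genes Csn2 and Wap were at 0 in 6 and 8 of the 10 adipocyte-rich libraries. At ZT 16 and ZT 20 the stellate cell and fibroblast markers summed to 2134 to 5250 CPM against 405 to 593 CPM, with 5 of 8 called higher and 3 lower. The endothelial markers summed to 224 to 345 against 216 to 297 CPM (4 of 8 higher and 3 lower) and those of cholangiocytes to 55.9 to 328 against 54.4 to 83.5 CPM (4 of 7 higher and 2 lower). The part of these markers in the mitotic genes was not tested.

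**Figure D5:**
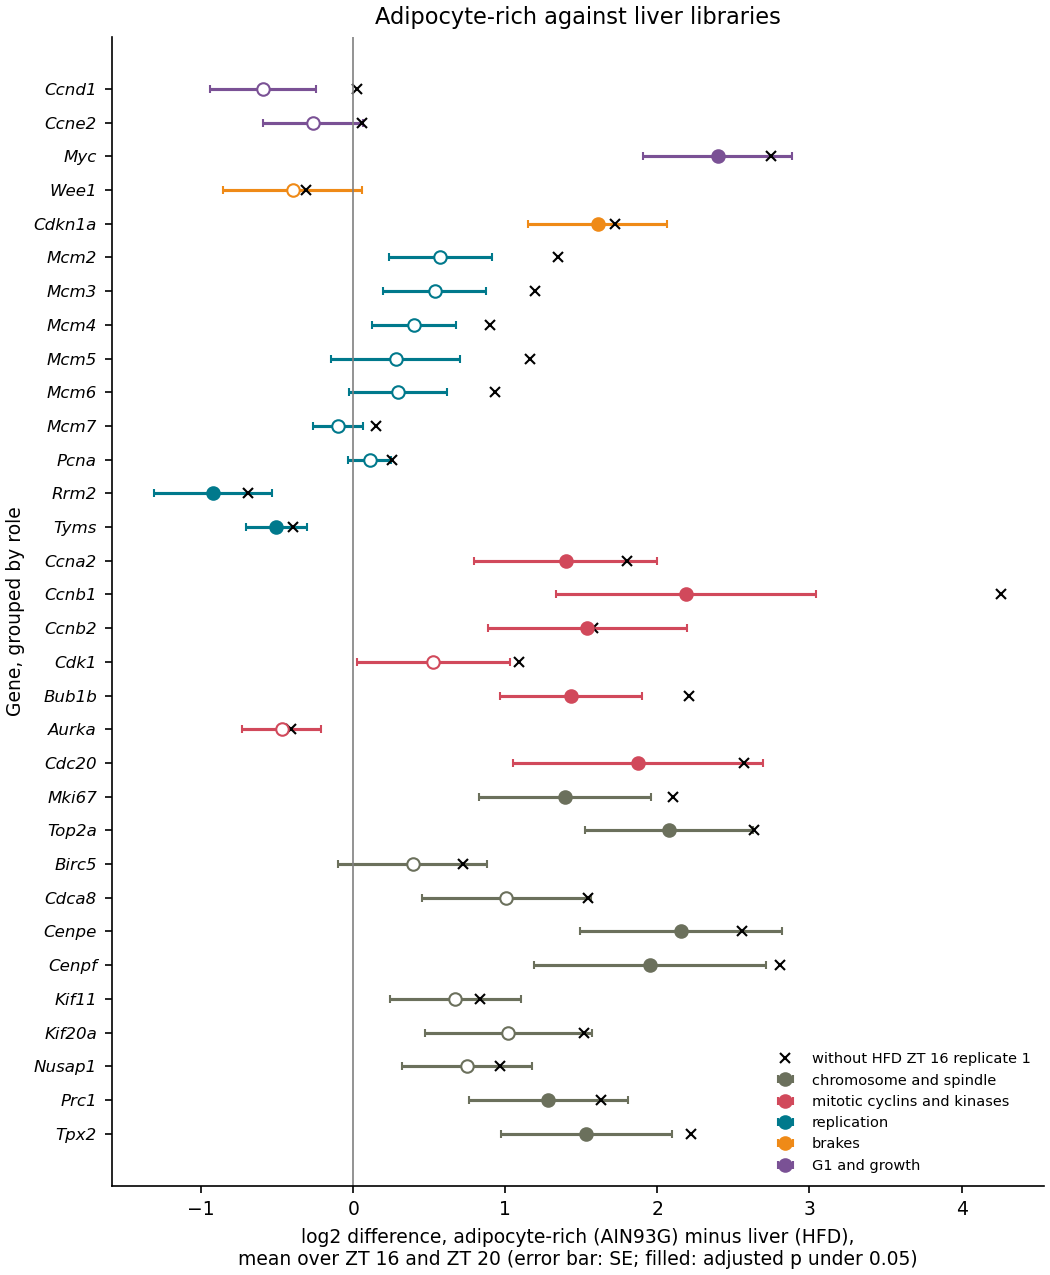
Difference on the log2 scale between adipocyte-rich (AIN93G) and liver (HFD) libraries at ZT 16 and ZT 20 for the 32 members tested, with bars of 1 standard error, filled points where the adjusted p was under 0.05, and crosses for the fit without HFD ZT 16 replicate 1. Of the points, Myc lies farthest to the right at 2.40, and the crosses of Mcm2 to Mcm6 lie beyond the ends of their error bars.

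The other genes of the same pathways behaved as follows. Over the time points with the HFD, 0 of 22 other G1/S genes, 0 of 35 other replication genes, 0 of 21 other genes of mitosis and 0 of 21 other brakes and checkpoint genes were called by edgeR, with 7, 8, 0 and 6 at an unadjusted p under 0.05, beside 634 (5.27%) called and 3034 at that p of all 12023 genes. Of 9 genes of the Myc network 1 was called, Mnt, a repressor that competes with Myc for its partner, with a span of 1.00 (adjusted p = 0.0477). With AIN93G (0.823% of all genes called) the 1 called was Ccng2, a cyclin tied to arrest, with a span of 1.85 (adjusted p = 0.0485). The cosine curve, called for 8.52% of all genes, was called for E2f8, Tfdp1 and Cdk2 of 22 G1/S genes and for the replication initiation gene Mcm10 of 37 replication genes (amplitude 1.07, adjusted p = 0.00358), and for Ccng2 of 21 other brakes and checkpoint genes (0.60, adjusted p = 0.0303). No gene of these lists was called for diet.

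In the adipocyte-rich libraries of ZT 16 and ZT 20, where 36.9% of all genes tested were called higher and 35% lower, 16 of 24 other brakes and checkpoint genes were higher and 2 lower, led by the CDK inhibitors Cdkn2c (4.03), Cdkn1c (2.52) and Cdkn2b (5.64). Of 30 other genes of mitosis, 14 were higher and 5 lower, among them the phosphatase gene Cdc25b (2.63) and the CDK subunit gene Cks2 (−2.86). Of 23 other G1/S genes, 10 were higher and 4 lower, and here the D-type cyclin genes Ccnd2 (4.30) and Ccnd3 (1.08) were higher, the retinoblastoma gene Rb1 (2.03) as well, and E2f8 lower (−4.43). Of 40 other replication genes, 9 were higher and 7 lower, with the thymidine kinase gene Tk1 (−2.81) lower, like Rrm2 and Tyms, and the origin recognition genes Orc2 (1.62) and Orc6 (1.22) higher. Of 9 genes of the Myc network, 3 were higher and 4 lower, the Myc partner Max at 0.89. In the liver fit, 21 other brakes and checkpoint genes, 21 of mitosis, 22 of G1/S and 35 of replication had enough reads. The genes added here, Cdkn2b and Cdc25b among them, passed the minimum only with the adipocyte-rich and ZT 24 libraries included. The counts called higher therefore include genes that could enter through being high there.

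Counts of some members may hold reads of neighbours. By the table's coordinates 15 of the 35 overlap a gene on the opposite strand, among them Mcm7 with Cops6, Cdc20 with Elovl1, Ccne2 with Ints8, Ccnd1 with Oraov1 and Kif20a with Cdc23, and the strand setting of the counting is not given in the sources used here. Cdc20 and Elovl1 can therefore not be fully told apart. The pseudogenes of Ccnb1, Pcna and Tyms had a mean of at most 2.57 reads per library over the 42 libraries, and Ccnb2-ps had 23.9, about as many as Ccnb2 itself in liver (22.4), so that Ccnb2 is uncertain.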

How the data were processed

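Samples labelled as liver from 42 mice were profiled by poly(A) RNA sequencing. The authors deposited raw counts of reads per gene, and the submitters' processing notes name fastp, STAR, HTSeq (0.6.1), DESeq, STAR-Fusion and the build mm10. The strand setting is not given in the sources used here. No column of per-sample values was left out (0), and 20401 of 54532 genes had no count. The NEBNext kit named in the labels was followed by paired-end sequencing.

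Here, counts were tested in R 4.3.3 with edgeR 4.0.16 (quasi-likelihood test, TMM scaling, limma 3.58.1 loaded with it), keeping genes with a mean of at least 25 counts over the libraries of the fit, with Benjamini-Hochberg adjustment over all genes kept and a threshold of 0.05. One fit held the 30 liver libraries (Alb over 10000 CPM) of ZT 0 to ZT 20, 1 the 18 liver libraries with the HFD and a cosine of 24 h, and 1 all 42 libraries by group. Between the diets, libraries of the same number share only a name. DESeq2 1.42.0, other scalings, other filters and fits without 1 library were the alternatives. The fits were tested on simulated data. The depth of each library (14592481 counts or more) makes 3 counts at most 0.206 CPM of all counts, an allowance for counting error only.

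The 35 members and all lists were chosen with earlier results of these data known. Named were all members, up to 4 genes of each other list by smallest p among those called over time with the HFD, for diet or for adipocyte-rich libraries, clock genes set beside a member, the marker lists, and pseudogenes of members. Mcm10, Ccng2, E2f8, Tfdp1 and Cdk2 were named after their values were seen, as the few genes called in their lists.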

Additional observations from a re-analysis of the deposited data

Results flagged for a closer look

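Libraries of ZT 24 entered the comparisons of diet and time only in the alternative that counted its livers as ZT 0, and 4 sums in mice fed the HFD lay above those of all 3 AIN93G libraries of that time. The 6 MCM genes summed to 152 CPM in HFD ZT 24 replicate 1 and to 60.9 CPM in replicate 2, against 42.5, 60.5 and 36.7 CPM with AIN93G. The 21 mitotic genes summed to 271 CPM in HFD ZT 24 replicate 1 and to 50.6 CPM in replicate 3, against 23.9, 50.3 and 20.6 CPM with AIN93G. Replicate 2 of the HFD (60.9 CPM) exceeded the highest AIN93G library (60.5 CPM) by less than the spread between the AIN93G libraries, as did replicate 3 for the mitotic sum. HFD replicates 1 and 2 and AIN93G replicates 1 and 2 were adipocyte-rich and replicate 3 of each diet was liver. In HFD replicate 1 the lymphocyte markers summed to 608 CPM, against 54.7 CPM in HFD replicate 2 and 83.6 and 40.6 CPM in the adipocyte-rich AIN93G libraries. None of these differences was tested, and neither was the part of the lymphocyte markers in them.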

How the results depend on the processing

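No paired analysis was possible because the replicate numbers only name the mice in accession order. Of the members called over time with the HFD (2), DESeq2 called 5, no filter on low counts 12, and the fit with ZT 24 livers counted as ZT 0 called 0, with 0 to 4 in fits without 1 library (0 without HFD ZT 0 replicate 3, 4 without HFD ZT 12 replicate 3). With AIN93G (0), DESeq2 called 2, no filter 10 and the fit without ZT 12 2, with 0 to 2 in fits without 1 library. For the cosine (2), DESeq2 called 5, no filter 8 and ZT 24 as ZT 0 none (0), with 1 to 4 without 1 library. For diet by time and for diet at ZT 12 (0 each), no filter called 1 (Myc). For adipocyte-rich against liver (15), library size alone called 26, with 8 to 19 without 1 library, and reversed Mcm7 (−0.10 to 0.63, adjusted p = 0.00222) and Tyms (−0.51 to 0.23). The other alternatives kept the count of members within 1.5 times. In the fits without 1 library, 330 to 1176 of all genes were called over time with the HFD (425 without HFD ZT 0 replicate 3 and 1176 without HFD ZT 12 replicate 3), 12 to 282 with AIN93G, 678 to 1710 by the cosine and 9305 to 9479 for adipocyte-rich libraries. Over all genes, alternatives other than leaving out a library called 200 to 1788 over time with the HFD (634), 44 to 872 with AIN93G (99), 367 to 1693 by the cosine (1023), 11 to 232 for diet (12), 0 to 93 for diet by time (0), 0 to 51, 0 to 19, 0 to 183 and 0 to 78 for diet at ZT 0, 4, 8 and 12 (0, 0, 2, 0), and 9628 to 12821 for adipocyte-rich libraries (9621). Adding a prior count of 0.5 in place of 2 gave a median spread of 0.836 for the members. Low counts limit the mitotic genes, of which Ccnb2, Bub1, Aurkb and Plk1 fell under the filter.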
